A study of Mus musculus with 32 samples.

Results

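The genes described here encode the subunits of the serine/threonine protein phosphatases PP1, PP2A, PP2B (calcineurin), PP4, PP5 and PP6. They were taken by symbol, as every gene of the deposited 3′UTR count table whose symbol begins with Ppp and a digit from 1 to 6, and 8 pseudogene symbols ending in -ps were left out. This gave 74 of the 44081 genes of the table, of which 11 encode catalytic and 63 encode regulatory subunits. By class, 43 belonged to PP1, 17 to PP2A, 5 to PP2B, 4 to PP4, 1 to PP5 and 4 to PP6. The symbol decided membership without regard to any measured value.

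The RNA came from 16 single hippocampal neurons of C57BL/6 mice, taken at embryonic day 18 and grown in culture for 15 days. The soma and the dendrites of each neuron were drawn into separate tubes with micropipettes, so that 16 dendrite libraries and 16 soma libraries were paired by neuron, and no treatment or genotype distinguished the neurons. Amplification of the poly-adenylated RNA used the aRNA method, which copies RNA by in vitro transcription, and took 3 rounds for neurons 1 to 4 and 2 rounds for the other 12, with dendrites and soma of a cell treated alike. The question was which phosphatase subunit mRNAs were present in dendrites and how their levels there compared with those in the soma of the same cell.

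Protein phosphatases of these families remove phosphate from serine and threonine residues and so oppose the kinases that act at synapses. A small number of catalytic subunits carries out this reaction, and regulatory subunits decide where the enzyme sits, which substrates it meets and when it is inhibited. Calcineurin is switched on by calcium and calmodulin, and in dendritic spines calcineurin and PP1 are known for their part in long-term depression, while PP2A works as a trimer of a scaffold, a catalytic and an exchangeable B subunit.

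Dendrite libraries held 646521 to 6954420 reads counted on 3′UTRs (median 1605714) and soma libraries 925525 to 21169974 (median 6165691). Mitochondrially encoded genes took 2.39% to 35.8% of the dendrite reads and 0.277% to 8.12% of the soma reads, and the dendrites of neurons 12, 15 and 16 exceeded 25%. Summed over 5 markers of pyramidal neurons, the level was 368 to 6773 in dendrites, in counts-per-million (CPM), and 95.4 to 2286 in somas, and over 5 interneuron markers, among them Gad1 and Sst, it was 1952 to 11105 and 1117 to 19558. The summed markers of astrocytes (6 genes) reached 828 CPM in dendrites and 529.7 in somas, those of microglia (6) 341 and 17.2, those of oligodendrocytes (6) 567 and 319, and those of endothelial cells (5) 126 and 122, with at least 1 library at 0 for each of these 4 lists in each compartment and none for the neuronal lists. Among all markers, 1 of the endothelial list had no read in dendrites and 1 none in somas, and every other one had a read in some library of each compartment. The part of these transcripts in the results was not tested.

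Reads on the 74 subunit genes together had 2694 to 6956 CPM in dendrites (median 5468) and 4824 to 11067 in somas (median 6527), before any scaling. A dendrite library had 1 or more reads for between 17 and 60 of the genes (median 45), and a soma library for between 46 and 64 (median 57.5). The dendrites of neuron 15 had the fewest, 17, and the dendrites of neuron 5 the most. With a minimum of 10 reads, 31.6 ± 8.58 subunit genes (SD, n = 16) were found in dendrites and 50.4 ± 7.50 in somas, and the soma had more in 15 of the 16 neurons, with neuron 5 as the exception. Thinning both libraries of each neuron to the smaller of their totals left 31.6 and 45.4 genes, again with more in the soma of 15 neurons.

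Of the 74 genes, 57 were detected (1 read or more) in 16 or more of the 32 libraries and entered the comparison between compartments, namely 10 catalytic and 47 regulatory subunits. Among the 17 that did not, 5 had no 3′UTR read in any library (Ppp1ca, Ppp1r14d, Ppp1r27, Ppp1r36 and Ppp1r3g) and 12 had reads in too few. Levels of single genes are CPM on 3′UTRs after TMM scaling, which describe a share of the sequenced reads and not a number of molecules, and they depend on the 3′UTR of each gene, so that they are compared between compartments and not between genes. Fold changes are on the log2 scale, dendrites over soma, from edgeR's quasi-likelihood test with neuron as a block, and adjusted p-values are Benjamini-Hochberg values over all 10880 genes tested.

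No subunit gene was higher in dendrites at an adjusted p of at most 0.05, and 5 of the 57 (8.77%) were higher in somas: Ppp4r4, Ppp1r21, Ppp2r1b, Ppp1r3e and Ppp4r2, all of them regulatory. The same test called 0.827% of all genes for dendrites and 5.71% for somas. Before adjustment (p under 0.05), 0 subunit genes pointed to dendrites and 16 to somas, against 3.55% and 26.7% of all genes. DESeq2 called 0 subunit genes for dendrites and 29 for somas, where its background was 4.26% and 46.2% of all genes. On exon counts edgeR called 0 subunit genes either way, against 1% of all genes for dendrites and 2.62% for somas. On the counts of the separate 3′ ends, summed per gene, it called 0 for dendrites and 4 for somas, the same genes without Ppp4r2, against 0.702% and 6.78% of all genes.

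The median gene tested had a log2 fold change of -1.49, and the median subunit gene one of -1.29, which is 0.20 above it. Of the 57 genes, 32 (56.1%) lay above the median gene, against 50% by construction for all genes, and 51 (89.5%) had a fold change below 0, against 8573 of 10880 genes (78.8%). When the dendrite libraries were rescaled so that the median gene had no change, 1 subunit gene was called higher in dendrites (Ppp2r2c) and 1 higher in somas (Ppp1r21), and among all genes the calls were 590 and 89 in place of 90 and 621. Directions are therefore given below also relative to the median gene. The median of the catalytic subunits was -1.41 and that of the regulatory subunits -1.24.

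**Figure D1:**
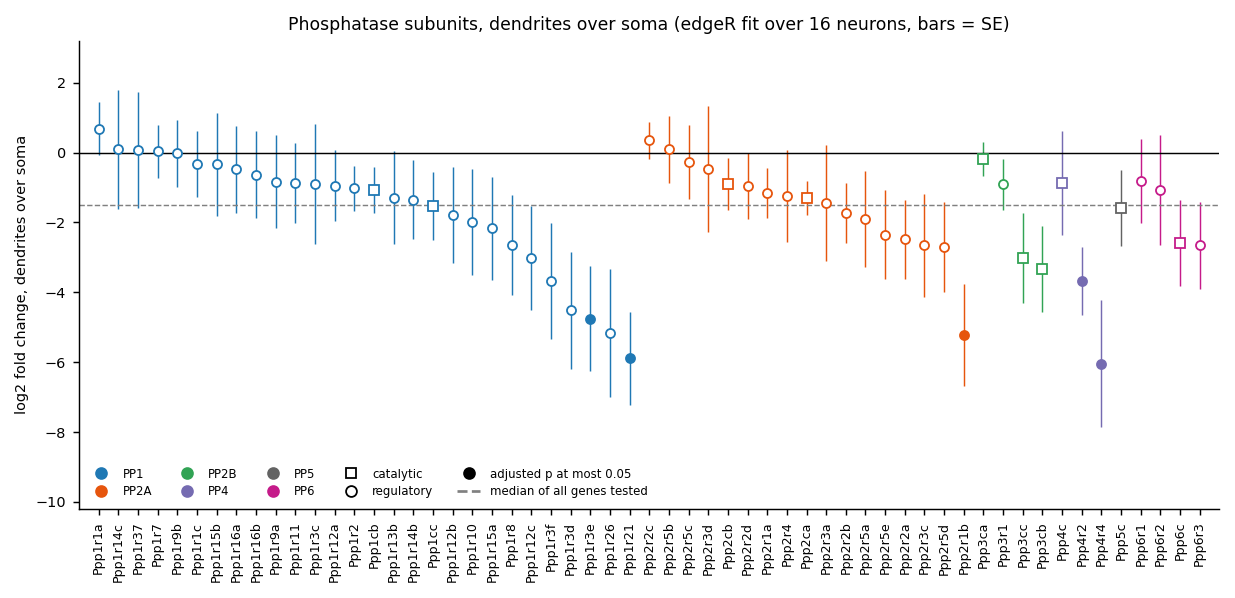
Log2 fold change, dendrites over soma, of the 57 tested subunit genes, grouped by phosphatase class and ordered within it, with squares for catalytic and circles for regulatory subunits, filled where the adjusted p was at most 0.05. Bars are standard errors of the edgeR fit over 16 neurons, and the dashed line is the median of all genes tested, -1.49. The 5 filled points lie between -6.05 and -3.68, and the highest point is Ppp1r1a at 0.68.

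PP1 has 3 catalytic genes in the mouse, and 2 of them could be compared on 3′UTR counts. Ppp1cb, the beta catalytic subunit (chromosome 5, 32458843 to 32517433, GRCm38), had 3.63 to 427 CPM in dendrites (median 118) and 125 to 395 in somas (median 228), with reads in all 32 libraries. The ranges overlapped, and the soma was higher in 13 neurons. Its fold change was -1.06 (SE 0.66, adjusted p = 0.256). On exon counts it was -0.58 (SE 0.75, adjusted p = 0.629). On the separate 3′ ends, with 289 dendrite reads against 5435 on the union, it was -3.04 (SE 1.21, adjusted p = 0.0916). Ppp1cc, the gamma subunit (chromosome 5, 122158278 to 122175273), had 0 to 21.3 CPM in dendrites (median 3.54) and 0.50 to 32.1 in somas (median 9.65), higher in the soma of 14 of 16 neurons. Its fold change of -1.53 (SE 0.97, adjusted p = 0.268) was within 0.03 of the median gene, and it had reads in 14 dendrites and 16 somas.

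Ppp1ca, the alpha subunit (chromosome 19, 4192065 to 4195420), had 0 reads in the 3′UTR table in every library, but the deposited exon counts held reads for it in all 16 dendrites and all 16 somas, 5266 and 23342 in total. An absence from the 3′UTR table is thus not an absence of its RNA. On exon counts its fold change was -0.52 (SE 0.77, edgeR adjusted p = 0.678). Its share of the exon reads of the 3 PP1 catalytic genes was 43.9% ± 23.6 (SD, n = 16) in dendrites and 43.9% ± 12.3 in somas, with a paired difference of 0.070 ± 24.5 percentage points (two-sided exact permutation test over sign flips, p = 0.992). The range was wider in dendrites, from 10.1% to 96.9%, than in somas, from 22.5% to 65.9%.

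Small inhibitor proteins bind the PP1 catalytic subunit directly, some of them only after phosphorylation by PKA or PKC. Of the 10 inhibitor genes 6 were tested, and all 6 lay above the median gene, with a median of -0.60 (from -1.36 to 0.68), while none passed the test in either direction. Ppp1r1a, inhibitor-1, which blocks PP1 once PKA has phosphorylated it (chromosome 15, 103530279 to 103538003), had the highest fold change of all 57 genes. It had 16.6 to 410.5 CPM in dendrites (median 146) and 3.08 to 217 in somas (median 71.4), was above 0 in all 32 libraries and was higher in the dendrites of 9 of 16 neurons. The ranges overlapped, and the difference was within the spread between neurons (log2 fold change 0.68, SE 0.75, adjusted p = 0.523). On exon counts it was 1.16 (SE 0.77, adjusted p = 0.328), and in the 4 neurons of 3 rounds alone it was -0.07. On the separate 3′ ends, which held 1076 dendrite reads in 11 libraries against 5398 in 16 on the union, it was -2.17 (SE 1.40, adjusted p = 0.265).

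Ppp1r2, inhibitor-2 (chromosome 16, 31251537 to 31275277), had 0 to 831 CPM in dendrites (median 224) and 191 to 882 in somas (median 412.0). Only the dendrites of neuron 15 had no read, and the fold change was -1.02 (SE 0.65, adjusted p = 0.264), with the soma higher in 11 neurons. Ppp1r1b, which encodes DARPP-32, the dopamine-regulated PP1 inhibitor of striatal neurons, had 0 reads in all 16 dendrites and reads in 4 somas, those of neurons 2, 3, 10 and 14, with 12 to 115 reads each and 185 in total. It had too few libraries with reads for the test. The exon counts gave 2 reads in dendrites and 189 in somas.

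The other tested inhibitors were Ppp1r14c (0.10, SE 1.70), Ppp1r1c (-0.33, SE 0.93), Ppp1r11 (-0.87, SE 1.15) and Ppp1r14b (-1.36, SE 1.13), in log2 fold change. Ppp1r1c, which encodes another relative of inhibitor-1, ranged from 0 to 1667 CPM in dendrites (median 79.7) and from 0 to 573 in somas (median 121), and the dendrites were higher in 9 of 16 neurons. Its dendrite values thus spread over the whole range of the soma values and beyond. Ppp1r14a and Ppp1r17 had reads in 5 and 2 dendrites and in 4 and 3 somas.

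Neurabin and spinophilin are scaffolds that bind PP1 and actin in dendritic spines. Spinophilin, Ppp1r9b (chromosome 11, 94991035 to 95006899), had reads in all 32 libraries, with 0.64 to 218 CPM in dendrites (median 33.4) and 6.52 to 89.4 in somas (median 26.1). The dendrite values enclosed those of the somas, the dendrites were higher in 10 of 16 neurons, and the fold change was -0.02 (SE 0.96, adjusted p = 0.991). Neurabin, Ppp1r9a (chromosome 6, 4902917 to 5165661), had 0 to 255 CPM in dendrites (median 49.3) and 0.45 to 370.0 in somas (median 75.0), with no read in 4 of the dendrites. Its fold change was -0.84 (SE 1.32, adjusted p = 0.667). On exon counts it was -1.06 (SE 1.21, adjusted p = 0.580), and on the separate 3′ ends -2.96 (SE 1.94, adjusted p = 0.273). The third gene of this kind, Ppp1r18, was not tested, and 644 of its 646 dendrite reads were in neuron 9, whose soma had 0, so that 1 library made up its dendritic signal.

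Ppp1r12a, the myosin-targeting subunit MYPT1 (chromosome 10, 108162193 to 108284475), also had reads in all 32 libraries, with 0.64 to 276 CPM in dendrites (median 33.7) and 4.01 to 242 in somas (median 63.9). It had a fold change of -0.94 (SE 1.01, adjusted p = 0.510) and overlapping ranges. On exon counts the fold change was -2.24 (SE 1.38, adjusted p = 0.294), 0.96 below the median gene there. On the separate 3′ ends it was -0.83 (SE 1.08, adjusted p = 0.584). The 5 genes of the MYPT family, which direct PP1 to myosin and membranes, were all tested, with a median of -0.94, and 3 were above the median gene. The lowest of them, Ppp1r12c, was at -3.02 (SE 1.49, adjusted p = 0.161), and none was called. Ppp1r7, which encodes the nuclear PP1 regulator SDS22 (chromosome 1, 93342854 to 93373489), had 33.6 to 202 CPM in dendrites (median 94.4) and 2.56 to 215 in somas (median 116), and at least 10 reads in all 16 dendrites. The soma value of neuron 12 was the low one. Its fold change was 0.03 (SE 0.75, adjusted p = 0.982), but -1.65 on exon counts (SE 1.25, adjusted p = 0.397).

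The glycogen-targeting subunits bring PP1 to glycogen particles and their enzymes. Of 7 such genes 4 were tested, with a median of -4.10, and 3 of the 4 lay below the median gene. Ppp1r3e (chromosome 14, 54872669 to 54877550) had 0 to 35.2 CPM in dendrites, with reads in 6 of 16, and 0 to 81.5 in somas (median 13.5), with reads in 15. The soma was higher in 15 of 16 neurons, neuron 1 being the exception, and the fold change was -4.75 (SE 1.51, adjusted p = 0.0459). Its adjusted p exceeded 0.05 in 12 of the 16 fits that each left out 1 neuron and reached 0.122. The exon counts held 0 reads for it in dendrites and 3 in somas, against 133 and 2087 in the 3′UTR table, so that this gene could not be compared on exons.

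Ppp1r3d (chromosome 2, 178411206 to 178414472) had 0 to 173 CPM in dendrites (median 0) and 0 to 57.3 in somas (median 15.2). Reads were found in 6 dendrites and 15 somas, and the highest of all values was in the dendrites of neuron 7. The soma was higher in 12 of 15 neurons with reads, and the fold change of -4.51 (SE 1.68) did not pass the test (adjusted p = 0.0783). Ppp1r3f was at -3.68 (SE 1.66, adjusted p = 0.132) and Ppp1r3c at -0.90 (SE 1.73, adjusted p = 0.726).

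Among the remaining PP1 subunits, Ppp1r21 had the smallest adjusted p of the 57 genes. Its product binds PP1 and is known from endosomes (chromosome 17, 88530118 to 88588367). In dendrites it had 8 reads in all, no more than 3 in a library, in neurons 1, 2, 4 and 5, and 0 in the other 12. In somas it had 1695 reads, with reads in 15 and at least 10 reads in 12. Expressed as CPM, dendrites ranged from 0 to 3.74 (median 0) and somas from 0 to 33.1 (median 8.01), and the soma was higher in 14 of the 15 neurons with reads, all but neuron 1. The fold change of -5.89 (SE 1.33, adjusted p = 0.0124) was called in all 16 fits that left out 1 neuron. It was not called without neurons 12, 15 and 16 together (-5.55, adjusted p = 0.0540), nor on exon counts (-4.50, SE 1.55, adjusted p = 0.0672).

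Ppp1r26, a nucleolar PP1 partner, had a similar size of difference without passing the test. It had reads in 4 dendrites and 13 somas, and the dendrites of neurons 2 and 8 held 113 and 137 reads, more than the somas of the same neurons, with 24 and 52. The fold change was -5.18 (SE 1.83, adjusted p = 0.0689). For the eIF2alpha-targeting subunits Ppp1r15a (GADD34) and Ppp1r15b (CReP), which direct PP1 to a translation initiation factor, the values were -2.17 (SE 1.47) and -0.34 (SE 1.48), with adjusted p-values of 0.295 and 0.886. The exon counts held 464 dendrite reads of Ppp1r15a against 120 and gave -0.39 (SE 1.57, adjusted p = 0.887). On the separate 3′ ends Ppp1r15a was at -2.16 (SE 1.49, adjusted p = 0.298).

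**Figure D2:**
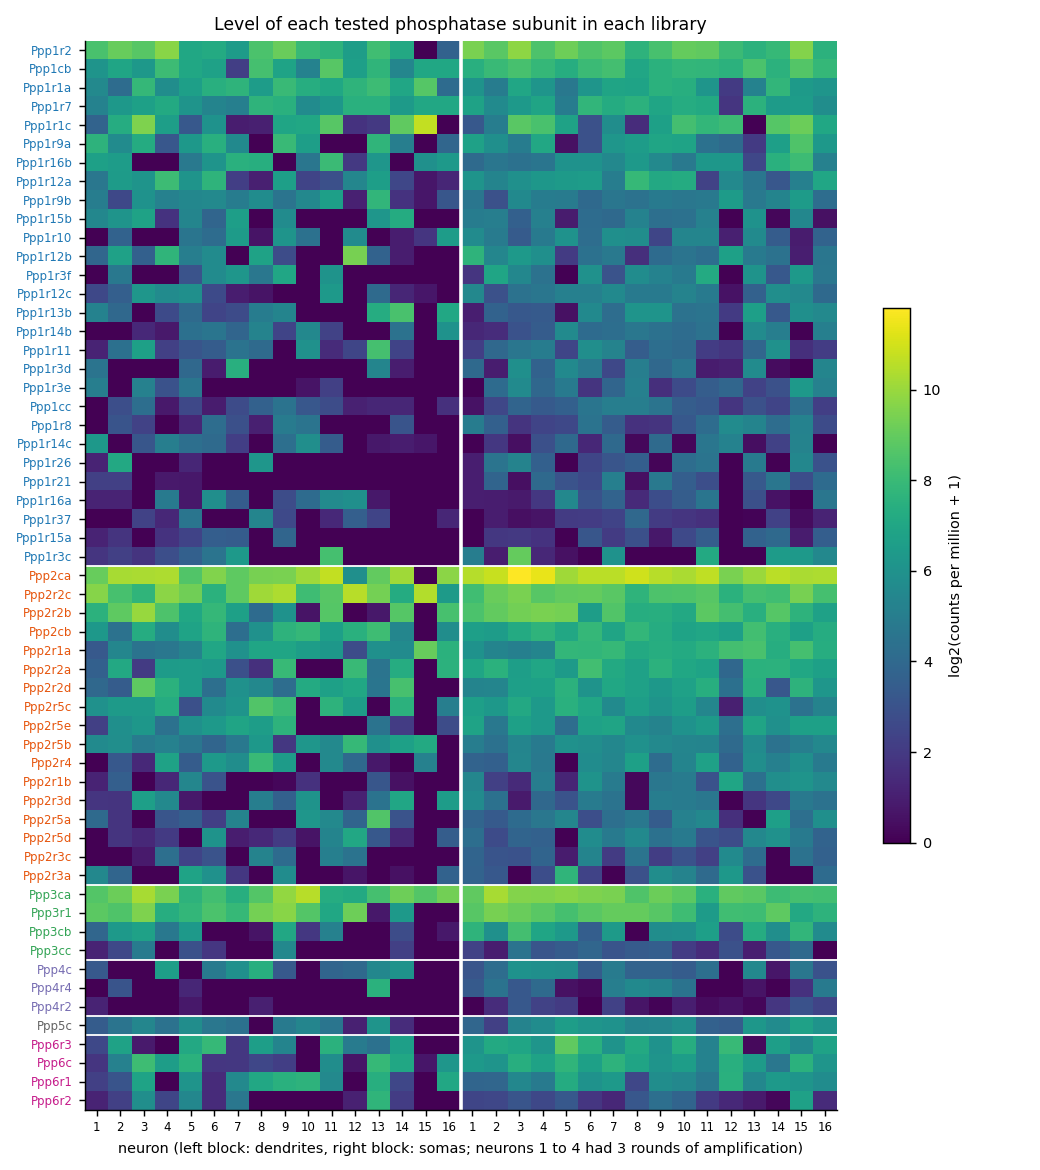
Level of each of the 57 tested subunit genes in each of the 32 libraries, as log2(CPM + 1), with dendrites in the left block and somas in the right one and genes grouped by phosphatase class (label colours). Dark cells are at or near 0 and are more frequent in the left block. The dendrites of neurons 15 and 16 hold 17 and 29 of all 74 genes, and Ppp2ca, Ppp2r2c and Ppp3ca are bright in nearly every column.

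All 17 PP2A genes had enough reads for the test, and their median was -1.30. The alpha catalytic subunit Ppp2ca (chromosome 11, 52098681 to 52127778) had 0 to 1706 CPM in dendrites (median 728) and 681 to 3585 in somas (median 1524). The soma was higher in 15 of 16 neurons, neuron 11 being the exception, although the ranges overlapped. The dendrites of neuron 15 had no read of it, while its soma had 1255 CPM. The fold change was -1.30 (SE 0.49, adjusted p = 0.0816), which is 0.19 above the median gene, and it was the 1 subunit gene called without neurons 12, 15 and 16 (-0.83, adjusted p = 0.0466). With the median gene set to 0 it was 0.24. The beta subunit Ppp2cb (chromosome 8, 33599625 to 33619441) had 0 to 278 CPM in dendrites (median 88.3) and 91.3 to 296 in somas (median 140.2), with a fold change of -0.91 (SE 0.74, adjusted p = 0.389).

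PP2A has a pair of scaffold genes, whose products hold the catalytic and the B subunit together. Ppp2r1a, the alpha scaffold (chromosome 17, 20945311 to 20965916), had reads in all 32 libraries, with 5.74 to 537 CPM in dendrites (median 60.6) and 33.1 to 339 in somas (median 163). It was higher in the soma of 13 neurons, at a fold change of -1.16 (SE 0.71, adjusted p = 0.249). Ppp2r1b, the beta scaffold (chromosome 9, 50845301 to 50894229), had 0 to 42.2 CPM in dendrites (median 0.31) and 0.20 to 121 in somas (median 29.1). It had 97 reads in 9 dendrites, 60 of them in neuron 5, and 3813 reads in 16 somas, and the soma was higher in 14 of 16 neurons, all but neurons 2 and 5. The fold change of -5.22 (SE 1.46, adjusted p = 0.0275) was called. The adjusted p exceeded 0.05 in 4 of the 16 fits that left out 1 neuron and reached 0.0815, and on exon counts it was 0.101 (-3.92, SE 1.52).

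The B subunits of PP2A decide its substrates and its place in the cell. Among the 4 genes of the Ppp2r2 (B55) family, the gamma subunit Ppp2r2c (chromosome 5, 36868513 to 36955078) stood highest. It had at least 10 reads in all 32 libraries, with 86.4 to 1487 CPM in dendrites (median 541) and 187 to 684 in somas (median 402). The dendrites were higher in 9 of 16 neurons and enclosed the soma values. The fold change was 0.35 (SE 0.53, adjusted p = 0.648), and with the median gene set to 0 it was 1.89 (adjusted p = 0.0135), the value at which it was called. Ppp2r2b, the beta subunit, had 0 to 1017 CPM in dendrites (median 160.3) and 94.5 to 689.6 in somas (median 333), with no read in 2 dendrites. Its fold change of -1.73 (SE 0.86, adjusted p = 0.166) was 0.24 below the median gene, so that these close relatives lay on either side of it. The difference between these genes was not tested.

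Of the 5 genes of the Ppp2r5 (B56) family, which take PP2A to centromeres, signalling complexes and other sites, 2 lay above the median gene and none was called. Ppp2r5b had 0 to 238 CPM in dendrites (median 47.2) and 15.9 to 62.4 in somas (median 40.4), was higher in the dendrites of 10 of 16 neurons and had a fold change of 0.09 (SE 0.95, adjusted p = 0.955). At the other end was Ppp2r5d at -2.70 (SE 1.29, adjusted p = 0.150). The 3 genes of the B double prime family ranged from -2.65 to -0.48, and Ppp2r4, the older symbol of the activator Ptpa, was at -1.24.

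Calcineurin consists of a catalytic A subunit and a calcium-binding B subunit. Ppp3ca, the A alpha gene (chromosome 3, 136670124 to 136937727), had at least 10 reads in every library, with 144 to 1469 CPM in dendrites (median 403) and 177 to 1247 in somas (median 485). The ranges covered each other, the dendrites were higher in 7 neurons and the somas in 9, and the fold change was -0.18 (SE 0.49, adjusted p = 0.809), the highest among the catalytic subunits and 1.31 above the median gene. Ppp3r1, the B subunit of neurons and most tissues (chromosome 11, 17159263 to 17200375), had 0 to 832 CPM in dendrites (median 295) and 89.0 to 678 in somas (median 426), with no read in the dendrites of neurons 15 and 16. It was at -0.90 (SE 0.73, adjusted p = 0.380).

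The other A subunits were lower in dendrites in most neurons without passing the test. Ppp3cb, the A beta gene (chromosome 14, 20499364 to 20546573), had 0 to 135 CPM in dendrites (median 4.16) and 0 to 309.6 in somas (median 71.7), with reads in 11 dendrites and 15 somas. The soma was higher in 13 of 16 neurons and the fold change was -3.33 (SE 1.22, adjusted p = 0.0756). On exon counts the same gene had reads in all 32 libraries, 8371 in dendrites and 36830 in somas, and a fold change of -0.91 (SE 0.71, adjusted p = 0.409), so that the size of its difference depended on the counted region. The table of separate 3′ ends also held more reads for it than the union of its 3′UTRs, 7256 against 1423 in dendrites and 40302 against 11101 in somas, and all libraries but the dendrites of neuron 15 had some. In the dendrites of neurons 6, 7 and 13, for example, the union had 0 reads and the ends had 216, 104 and 272. Summed over its ends the fold change of Ppp3cb was -1.53 (SE 0.71, adjusted p = 0.138), which is 0.17 above the median gene of that table. Ppp3cc, the A gamma gene known best from testis (chromosome 14, 70217865 to 70289471), had 0 to 44.5 CPM in dendrites (median 0) and 0 to 21.7 in somas (median 7.64), at -3.02 (SE 1.28, adjusted p = 0.113). On exon counts it had reads in 11 dendrites against 7 and was at -1.54 (SE 1.34, adjusted p = 0.462), 0.27 below the median gene there. On the separate 3′ ends it was at -2.94 (SE 1.26, adjusted p = 0.111). Ppp3r2, the B subunit gene of testis, was the reverse case, with 72 reads in the dendrites of neurons 5, 6, 7, 8 and 16 and 0 reads in all 16 somas, and it had reads in too few libraries to be tested. Its exon counts held 74 dendrite reads and 0 soma reads, but its separate 3′ end held only 1 dendrite read. Whether the 72 reads came from Ppp3r2 mRNA was not tested.

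PP4, PP5 and PP6 are phosphatases of the same fold with roles in DNA repair, signalling and the cell cycle. The PP4 catalytic gene Ppp4c (chromosome 7, 126785866 to 126792496) had 0 to 169 CPM in dendrites (median 11.0) and 0 to 63.0 in somas (median 15.2), with a fold change of -0.87 (SE 1.49, adjusted p = 0.692). Both tested regulatory subunits of PP4 were called higher in somas. Ppp4r2 (chromosome 6, 100833622 to 100869934), which takes PP4 to DNA repair, had 4 reads in 3 dendrites, no more than 2 each, and 239 reads in 14 somas, 7 of which had at least 10. In CPM it ranged from 0 to 1.25 in dendrites and from 0 to 8.59 in somas (median 1.41), with the soma higher in 13 of the 15 neurons with reads. Its fold change was -3.68 (SE 0.97, adjusted p = 0.0206). The exon counts held 2333 reads for it in dendrites, 1965 of them in neuron 9, and 3838 in somas, and gave -2.00 (SE 1.40, adjusted p = 0.357). The separate 3′ ends held 1719 dendrite reads in 6 dendrites, 1708 of them in neuron 9, and 1139 soma reads in 16 somas, and on them the difference was not called (-4.83, SE 1.63, adjusted p = 0.0554).

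Ppp4r4 (chromosome 12, 103532283 to 103613831), a cytosolic PP4 partner, had reads in 3 dendrites and 13 somas. Its dendrites held 6 reads in neuron 2, 2 in neuron 5 and 258 in neuron 13, where the soma had 7, and its somas held 2132 reads, 856 of them in neuron 9. In CPM it ranged from 0 to 185 in dendrites (median 0) and from 0 to 48.4 in somas (median 8.83), so that the highest value of all was in a dendrite library. The soma was higher in 11 of the 13 neurons with reads, and the fold change was -6.05 (SE 1.82, adjusted p = 0.0372). This value rested on the pairing, since it was -0.10 (adjusted p = 0.983) when the neurons were not paired, and it was called in 3 of the 16 fits that left out 1 neuron. Its adjusted p exceeded 0.05 in 10 others, and without neuron 2, 5 or 13 it had reads in too few libraries for the test. The third PP4 regulatory gene, Ppp4r1, had 24 reads in 3 dendrites, 22 of them in neuron 5, and 3576 in 9 somas, and was not tested.

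Ppp5c, the gene of PP5, whose catalytic and regulatory parts are in 1 protein (chromosome 7, 17004640 to 17027924), had 0 to 68.7 CPM in dendrites (median 21.7) and 3.73 to 108 in somas (median 51.7). The soma was higher in 13 of 16 neurons, and the fold change of -1.59 (SE 1.09, adjusted p = 0.303) was close to the median gene. Ppp6c, the catalytic gene of PP6 (chromosome 2, 39194354 to 39226451), had 0 to 284 CPM in dendrites (median 20.1) and 24.8 to 214 in somas (median 98.3), with a fold change of -2.59 (SE 1.23, adjusted p = 0.148). Its dendrite values ran from 1 neuron with no read to 5 neurons above the soma of the same cell. The 3 PP6 regulatory genes lay between -2.66 and -0.81, and none was called.

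**Figure D3:**
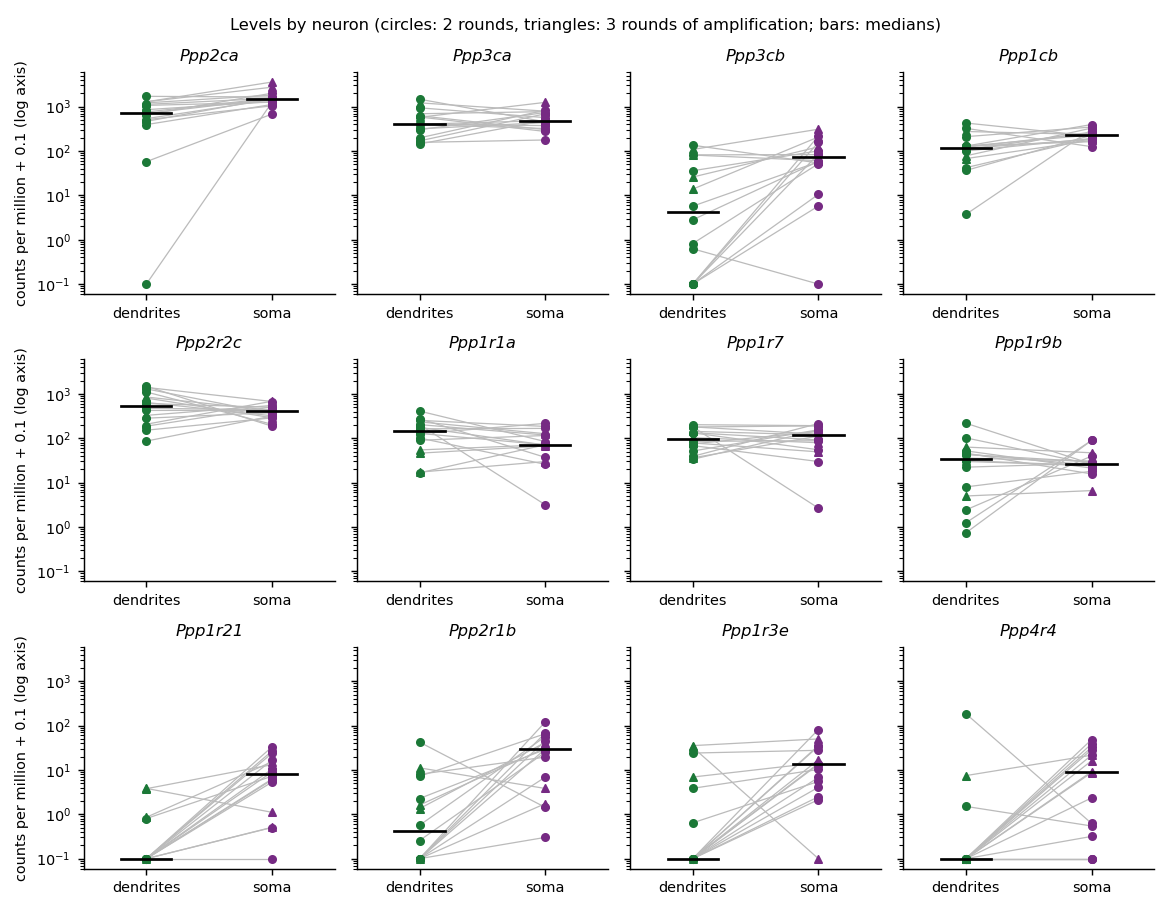
Levels of 12 subunit genes by neuron, as CPM + 0.1 on a log axis, with lines joining the dendrites and the soma of a neuron, bars at the medians and triangles for the 4 neurons with 3 rounds of amplification. Ppp3ca, Ppp1cb and the last 4 genes of the upper rows (Ppp2r2c to Ppp1r9b) have reads in all 16 dendrites, whereas Ppp1r21, Ppp2r1b, Ppp1r3e and Ppp4r4 have them in 4, 9, 6 and 3, among them Ppp4r4 in neuron 13 at 185 CPM.

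Presence in dendrites was counted apart from the level. Of the 74 genes, 8 had a read in all 16 dendrites, namely Ppp1cb, Ppp1r1a, Ppp1r7, Ppp1r9b, Ppp1r12a, Ppp2r1a, Ppp2r2c and Ppp3ca, and 14 had a read in at least 15 dendrites. All of these were among the 57 tested, of which 14.0% and 24.6% they made up, against 8.01% and 17.1% of all genes tested. They comprised catalytic subunits of PP1 and calcineurin, the PP2A scaffold, an inhibitor and 2 PP1-targeting proteins among others. In somas, 33 of the 57 (57.9%) had a read in all 16 libraries, against 4425 of 10880 genes (40.7%). The dendritic part of the CPM of a neuron was averaged over the neurons with at least 10 reads of the gene in both compartments together, for genes with 5 or more such neurons: its median over the subunit genes was 36.1% and over all such genes 34.4%, and the median SD over neurons was 31.3 and 32.6 percentage points. Among the subunit genes this mean ranged from 0% for Ppp4r2 (n = 7) and 3.04% ± 6.72 for Ppp1r21 (SD, n = 12) to 55.0% ± 21.6 for Ppp2r2c and 59.4% ± 21.8 for Ppp1r1a (SD, n = 16). The 4 dendrite reads of Ppp4r2 were in neurons 1, 5 and 8, which had fewer than 10 reads of it, as had neuron 1 of Ppp1r21, so that these reads do not enter the means. The 0% for Ppp4r2 rests on the union of 3′UTRs, which held few of its reads. Its separate 3′ ends held 1719 dendrite and 1139 soma reads. Of the dendrite reads 1708 were in neuron 9, where the union had 0.

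Shares between close relatives were compared within each library, since such a share does not depend on the scaling between compartments. Ppp3ca took 93.8% ± 9.11 (SD, n = 16) of the 3′UTR reads of the 3 calcineurin A genes in dendrites and 83.1% ± 12.6 in somas. It ranged from 69.2% to 100% in dendrites and from 58.0% to 97.5% in somas, and was at least 99% in 8 dendrites and in 0 somas. The share was higher in the dendrites of 13 of 16 neurons, by 10.7 ± 15.3 percentage points (two-sided exact permutation test over sign flips, p = 0.0139). Adjusted over the 4 shares planned this was 0.0554, and over the 3 that could be tested 0.0416, so that the call depended on the number of shares counted. The high dendrite share also depended on the union table, which holds few of the Ppp3cb reads described above: with all separate 3′ ends summed per gene the Ppp3ca share was 67.1% ± 22.3 in dendrites and 50.8% ± 11.8 in somas (SD, n = 16), higher in the dendrites of 11 neurons, by 16.3 ± 27.1 points (same exact test, p = 0.0307, adjusted over 4 shares 0.116 and over 3 shares 0.0871). On the union of 3′UTRs, the Ppp3ca share passed over the 4 shares when neuron 2, 5 or 9 was left out. The adjusted p of the exact test was then 0.0330, 0.0078 and 0.0393. These are the 3 neurons in which the share was higher in the soma. Leaving out a contrary pair lowers the p by construction, so no conclusion is drawn from these fits. With any other single neuron left out, it did not pass over the 4 shares. Without neurons 12, 15 and 16 the difference was 8.66 ± 14.1 points (n = 13, same exact test, p = 0.0510), and on exon counts the shares were 57.7% and 46.1% (n = 16, same exact test, p = 0.115).

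Ppp2ca took 83.2% ± 18.9 (SD, n = 15) of the reads of both PP2A catalytic genes in dendrites and 90.4% ± 4.37 in somas. The share was higher in the dendrites of 7 neurons and in the somas of 8, and the difference of -7.16 ± 16.9 percentage points was within the spread between neurons (two-sided exact permutation test over sign flips, p = 0.0616, adjusted over 4 shares 0.123). Neuron 12 had the lowest dendrite share, 24.2%, and without it the difference was -3.17 points. Ppp2r1a took 93.3% ± 14.1 (SD, n = 15) of the scaffold reads in dendrites and 85.1% ± 12.1 in somas, a difference of 8.21 ± 21.4 points in the same direction in 12 of 15 neurons (same exact test, p = 0.161, adjusted 0.214). Neurons 2, 5 and 13 went the other way, neuron 5 the furthest with 46.9% in dendrites and 99.4% in its soma. Without neuron 5 the difference was 12.5 points (exact test adjusted p = 0.0110). That fit leaves out the strongest contrary pair, which lowers the p by construction, so no conclusion is drawn from it. No other fit that left out 1 neuron passed, and the adjusted p reached 0.394. With at least 50 reads required, the difference was 5.89 points (n = 11, same exact test, p = 0.402). These differences between compartments did not differ detectably between neurons of 2 and of 3 rounds (exact permutation test over neurons, two-sided, p = 0.495 for Ppp2ca, 0.842 for Ppp3ca and 0.859 for Ppp2r1a, 0.859 each after adjustment).

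**Figure D4:**
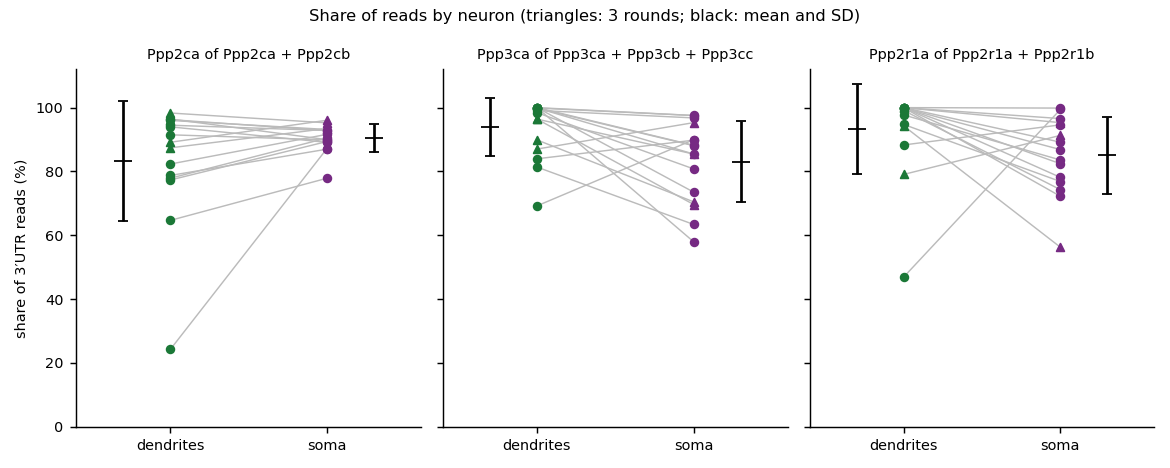
Share of reads on the union of 3′UTRs taken by Ppp2ca, Ppp3ca and Ppp2r1a among their closest relatives, in percent, for the dendrites and the soma of each neuron (lines join a neuron, triangles mark 3 rounds of amplification, black marks are means with SD). The Ppp3ca share is higher in the dendrites of 13 of 16 neurons, and single low dendrite values stand apart for Ppp2ca at 24.2% and for Ppp2r1a at 46.9%.

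Genes with more than 1 3′ end were compared by the share of reads on the later-numbered of their top 2 ends, where an end is the last 500 nt of a 3′UTR isoform. Of the subunit genes 30 had enough reads, 16 of them in fewer than 10 neurons, and 0 were called, as were 0 of 3508 genes in all. At an unadjusted p under 0.1, 1 of the 30 was found, against 8.44% of all genes. This was Ppp3cb, whose end 4 took 10.6% of the reads of ends 2 and 4 in dendrites and 22.9% in somas, a paired difference of -12.3 ± 21.6 percentage points (SD, n = 13, exact signed-rank test, two-sided, p = 0.0266, adjusted p = 0.906). The share was lower in dendrites in 11 of 13 neurons. In dendrites 5 of the neurons had 0% on end 4, and neuron 2 went the other way with 53.7% in dendrites and 2.80% in its soma. For Ppp2ca, Ppp2r2b and Ppp2r2c, the mean share of end 2 over neurons was 95.3% to 99.8% in both compartments, and the lowest dendrite values were 72.4% for Ppp2ca in neuron 3, 81.9% for Ppp2r2b in neuron 6 and 91.9% for Ppp2r2c in neuron 4.

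The number of amplification rounds was the batch given for each neuron. The paper also states that the neurons came from several cultures and days and that a HiSeq or a NextSeq was used. Which culture, day or instrument belonged to a neuron is not given in the sources used here, and these were not tested. In edgeR's interaction test of compartment and number of rounds, no gene of 10880 passed at an adjusted p of at most 0.05. An unadjusted p under 0.05 was found for 288 genes and, among the subunit genes, for 1. That gene was Ppp1r21, whose fold change was 5.93 higher in neurons of 3 rounds (SE 2.58, unadjusted p = 0.0257, adjusted p = 1). With 4 neurons of 3 rounds, the interaction test could not exclude large changes of single genes. In the 12 neurons of 2 rounds alone, Ppp1r21, Ppp1r3e and Ppp4r2 were called higher in somas, and in the 4 neurons of 3 rounds none was. The median gene had a log2 fold change of -1.70 with 2 rounds and of -0.62 with 3 rounds.

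Other phosphatases and partners were read out from a list of 50 genes, 47 of which were in the table and 41 were tested. None was called higher in dendrites and 2 were called higher in somas, against 0.827% and 5.71% of all genes, with a median fold change of -1.41. Akap5, the anchoring protein that holds calcineurin and PKA at synapses, had 0 to 153 CPM in dendrites (median 0.97) and 11.2 to 366 in somas (median 166), higher in the soma of 14 of 16 neurons, with a fold change of -6.13 (SE 1.36, adjusted p = 0.0117). Ppm1k, a mitochondrial phosphatase of the PP2C family, had 0 to 119.6 CPM in dendrites (median 1.03) and 3.08 to 193 in somas (median 73.5), at -4.09 (SE 1.32, adjusted p = 0.0488). By group, 1 of 12 tested PP2C genes, 1 of 7 calcineurin partners, and 0 of 11 PP2A partners, 0 of 8 PP1 partners and 0 of 3 PP6 partners and EF-hand phosphatases were called.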

How the data were processed

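Single-cell aRNA libraries (stranded TruSeq, paired-end) were aligned by the authors to mm10 with STAR 2.4.0, and uniquely mapped reads were counted with VERSE. The deposited values are counts, whole numbers without normalization, on the union of the 3′UTRs of each of 44081 genes, on 74532 3′ ends (the last 500 nt of isoforms) and, per sample, on the exons of 23453 genes. They carry no molecular identifiers, so precision was taken from the spread between neurons. Groups and pairs came from the labels, and 0 columns were left unused.

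From these counts, dendrites were compared with somas with edgeR 4.0.16 (R 4.3.3; TMM, robust quasi-likelihood fit, neuron as a block) over 10880 genes that had 1 read or more in 16 or more libraries, at an adjusted p of at most 0.05. DESeq2 1.42.0 was an alternative. An SE is the fold change divided by the root of the F statistic. Shares required at least 10 reads on the relatives in both compartments of a neuron. 3′ ends were compared where 5 or more neurons had 10 or more reads on the top 2 ends in both compartments. Which end is the distal one is not given in the sources used here, so the later-numbered end was used, and the two-sided test gives the same p for either. All other values came from Python 3.11 with SciPy 1.17.1, NumPy 2.4.6 and pandas 2.3.3. Positions are those of GENCODE genes on GRCm38, of which some overlap another gene on the same strand: Ppp1cb with Gm43312, Ppp1r10 with Mir1894, Ppp1r3f with Gm36995, Ppp2ca with Mir3061 and Ppp3r1 with Wdr92.

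Both compartments came from the same cell. After removal of the compartment mean of each gene, libraries of the same neuron correlated at 0.085 ± 0.077 (SD, n = 16) and those of different neurons at -0.0053 ± 0.053 (SD, n = 240). Of 120 library pairs within each compartment, 0 held identical counts. Tested on simulated data with a log2 change of 4, the edgeR comparison recovered 72 of 173 changed genes and called 1 of 9768 unchanged ones. The isoform comparison recovered 20 of 82 changed genes with 0 false calls, all 20 among the 41 changed genes that had 10 or more neurons.

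The genes, the role groups, the lists of partners and markers and the tests were chosen with earlier results of these data known. Values are given for every catalytic subunit, every called gene, the 5 highest and the 5 lowest genes with 1 direction in 80% or more of the neurons with reads, every gene read in all 16 dendrites and 7 subunits known from synapses. Others (among them Ppp1r26, Ppp1r18, Ppp1r1c, Ppp2r5b, Ppp3r2 and Ppp4r1) were named after their values were seen. Alternatives concerned the block, exon counts, the scaling, the test, the filter, the rounds of amplification, each neuron left out and, added after seeing the data, neurons 12, 15 and 16 left out, equal read numbers and the separate 3′ ends summed per gene. These sums exceeded the union counts for 4 subunit genes (Ppp2r5c, Ppp3cb, Ppp4c and Ppp4r2) and were less than the union divided by 1.5 for 17. No DNA or protein sequence was used.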

Additional observations from a re-analysis of the deposited data

How the results depend on the processing

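No subunit gene passed the test in dendrites except under rescaling to a median change of 0 (1 gene). The genes called higher in somas numbered 29 with DESeq2, 0 on exon counts, 1 after rescaling, 3 with 2 rounds, 0 with 3 rounds, 0 with no filter, 2 with no replicate block and 1 without neurons 12, 15 and 16, and 1 to 5 when 1 neuron was left out. Without neuron 12 the calls were Ppp1r21 and Ppp4r2, and without neuron 15 or 16 only Ppp1r21. Of the 5 genes, 5 were also called with DESeq2 and with median-of-ratios factors, 2 with no replicate block and 1 after rescaling. Over all genes, the calls in dendrites and somas were 463 and 5029 with DESeq2, 590 and 89 after rescaling, 41 and 306 with 2 rounds, 3 and 1 with 3 rounds, 15 and 143 with no filter and 157 and 77 with no replicate block, and those in somas were 257 on exon counts, 1008 with median-of-ratios factors and 59 without neurons 12, 15 and 16. Leaving out 1 neuron gave 55 (neuron 7) to 119 (neuron 15) and 128 (neuron 16) to 967 (neuron 5). The causes were not tested.

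The median of the subunit genes relative to the median gene turned to -0.095 with 3 rounds, -1.10 with no filter, -0.087 with no replicate block and -0.042 without neurons 12, 15 and 16, and ranged from -0.026 (without neuron 16) to 0.327 with 1 neuron left out, so that no direction of this median held throughout. The Ppp3ca share difference of 10.7 points passed without pairing (permutation test, adjusted p = 0.0384), and with 1 neuron left out ranged from 8.63 to 12.8 (exact test adjusted p from 0.0078 to 0.111). For Ppp2ca it ranged from -8.14 to -3.17 and for Ppp2r1a from 6.08 to 12.5. For isoforms, 0 subunit genes were called at each setting. At an unadjusted p under 0.1 (signed-rank test), 1 of 30 was found in the main comparison. With at least 20 reads required it was 1 of 27, and with 2 rounds 2 of 23.

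Some fold changes turned sign. After rescaling, which moves all genes by about the same amount, values were 0.48 for Ppp1cb, 0.0011 for Ppp1cc, 0.59 for Ppp1r12a, 0.52 for Ppp1r2, 0.70 for Ppp1r9a, 1.52 for Ppp1r9b, 0.24 for Ppp2ca, 0.63 for Ppp2cb, 0.38 for Ppp2r1a, 1.36 for Ppp3ca, 0.63 for Ppp3r1 and 0.66 for Ppp4c. With 3 rounds they were 0.62 for Ppp1r12a, -0.066 for Ppp1r1a, 0.13 for Ppp1r9a, 0.32 for Ppp1r9b and 0.29 for Ppp5c. Ppp1r7 was at -0.21 with DESeq2 and with median-of-ratios factors, -1.65 on exon counts, -0.11 with no filter, -0.019 with no replicate block and -0.23 without neurons 12, 15 and 16. On exon counts Ppp1r9b was at 0.20 and Ppp3ca at 0.059. With no replicate block, Ppp1r9a was at 0.053, Ppp1r9b at 0.44 and Ppp4c at 0.51, and without neurons 12, 15 and 16 Ppp1r9a was at 0.36 and Ppp1r9b at 0.74. With 1 neuron left out, Ppp1r7 ranged from -0.060 to 0.46, Ppp1r9b from -0.18 to 0.49 and Ppp3ca from -0.31 to 0.24. On the separate 3′ ends summed per gene, Ppp1r1a was at -2.17. Exon counts gave no value for Ppp1r3e. Dendrite libraries held 646521 reads at the least, and how depth bears on the calls was not tested.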
